A study of Homo sapiens with 16 samples.

Results

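The variations described here are the local splicing variations that include a retained intron in HL60 cells treated with the CDK7 inhibitor SY-351 or with its solvent. A local splicing variation is the set of all junctions, and where present 1 retained intron, that leave 1 exon (a source variation) or enter 1 exon (a target variation). Members were the variations whose type in the authors' deposited table ends with an intron, and they numbered 1221 of 6716, of which 626 were source and 595 target variations. They lay in 951 of the 3700 genes with any variation. Since 211 introns were listed from both of their ends, the members held 1010 distinct introns. HL60 is a human acute promyelocytic leukaemia line, and the cells labelled wild type had been kept for 5 h in 50 nM SY-351 or in DMSO. Each group held 4 numbered replicates with 2 technical repeats each. Libraries were made from polyadenylated RNA, that is, from transcripts already cleaved and polyadenylated. Whether all intron reads came from such transcripts was not tested. Nothing in the labels ties the replicates to separate cultures, and p-values therefore describe the spread between these samples alone, which may be technical.

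An intron is removed when the spliceosome joins the exon upstream of its 5′ splice site to the exon downstream of its 3′ splice site. A retained intron stays in the polyadenylated transcript. Such RNA is often held in the nucleus, and, where the intron lies in the coding region and carries an in-frame stop codon, it can be degraded by nonsense-mediated decay once it is exported. CDK7 is the kinase of the general transcription factor TFIIH, phosphorylates the tail of RNA polymerase II and activates other cyclin-dependent kinases, and splicing of most introns takes place while the polymerase is still transcribing. The study asked what loss of CDK7 activity does to splicing, termination and gene expression.

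The introns differed widely in length and place. The listed intervals ran from 1 to 8831 nt with a median of 201 nt and quartiles of 92 and 413 nt, and 17 introns had no listed interval. Of the 993 with an interval, 553 had in the same variation a junction that removes exactly that interval, and these were 51 to 5243 nt long with a median of 236 nt. For the other 440 no listed junction did so, and 58 intervals were under 30 nt, too short to be whole introns. By gene, length and spacing to other exon edges, 401 were matched to an annotated intron of GENCODE v29 on GRCh38. Of these, 396 lie within an exon of another annotated transcript, from which their sequence was read, and 388 began with GT, 8 with GC, and 395 ended with AG. The reading frame could be followed into 209 introns inside coding sequence, and 176 of them held an in-frame stop codon. Of the 33 without a stop, 12 had a length divisible by 3.

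The sequences below are shown because they are the matched coding introns with the largest called changes in each direction that overlap no exon of another gene and have no near-identical gene copy, together with CWC25 as a short example. All were read from GENCODE v29 transcripts on GRCh38, 5′ to 3′. In the whole introns, capitals mark the GT and AG at the ends and the first in-frame stop codon. COPE encodes a subunit of the COPI vesicle coat, MRPL55 a mitochondrial ribosomal protein, PLAUR the urokinase receptor, RPS6KC1 a ribosomal protein S6 kinase-like protein, ARAP3 a GTPase-activating protein and CWC25 a splicing factor of the catalytic spliceosome.
COPE, intron 5 of 10, chr19:18905630-18905866, minus strand: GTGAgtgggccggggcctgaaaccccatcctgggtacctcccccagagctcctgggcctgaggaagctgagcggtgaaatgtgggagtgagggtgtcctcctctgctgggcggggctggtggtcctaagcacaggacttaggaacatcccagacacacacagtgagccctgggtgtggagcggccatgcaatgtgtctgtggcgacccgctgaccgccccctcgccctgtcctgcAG
MRPL55, intron 4 of 5, chr1:228107870-228107976, minus strand: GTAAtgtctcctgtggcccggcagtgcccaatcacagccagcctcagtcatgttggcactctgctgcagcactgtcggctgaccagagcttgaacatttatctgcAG
PLAUR, intron 3 of 3, chr19:43652054-43652224, minus strand: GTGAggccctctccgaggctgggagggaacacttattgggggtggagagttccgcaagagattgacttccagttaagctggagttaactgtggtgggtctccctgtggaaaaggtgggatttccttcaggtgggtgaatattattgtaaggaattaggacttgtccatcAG
RPS6KC1, intron 11 of 14, chr1:213242298-213242568, plus strand: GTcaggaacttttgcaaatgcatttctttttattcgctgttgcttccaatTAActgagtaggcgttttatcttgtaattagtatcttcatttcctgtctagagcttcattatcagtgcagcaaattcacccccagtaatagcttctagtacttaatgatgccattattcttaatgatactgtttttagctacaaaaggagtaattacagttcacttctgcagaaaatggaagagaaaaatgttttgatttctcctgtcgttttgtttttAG
ARAP3, intron 20 of 32, chr5:141661790-141662042, minus strand: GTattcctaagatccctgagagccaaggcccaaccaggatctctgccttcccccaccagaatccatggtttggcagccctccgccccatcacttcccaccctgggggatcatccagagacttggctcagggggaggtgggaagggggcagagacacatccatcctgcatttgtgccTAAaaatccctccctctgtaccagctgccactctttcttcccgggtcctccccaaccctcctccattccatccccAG
CWC25, intron 1 of 5, chr17:38810401-38810467, minus strand: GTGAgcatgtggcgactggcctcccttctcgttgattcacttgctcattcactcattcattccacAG
In COPE, MRPL55, PLAUR and CWC25 the first stop codon begins at intron base 2, so that it overlaps the 5′ splice site itself. It begins at base 51 in RPS6KC1 and at base 177 in ARAP3. FBXL8, an F-box protein gene, WFIKKN1, which encodes a secreted protease inhibitor-like protein, and RXRB, a nuclear receptor gene, have longer introns, of which only the ends are shown. Here 10 exon and 20 intron bases are given at each end, and capitals mark the first 6 intron bases and the final AG.
FBXL8, 5′ splice site of intron 2 of 2, chr16:67161938-67162635, plus strand: caaaaatcagGTGAGCctgctcctccacac
FBXL8, 3′ splice site of the same intron: cattggctctccatgtccAGgtttcatcct
WFIKKN1, 5′ splice site of intron 1 of 1, chr16:631425-632581, plus strand: cagggaccagGTGAGTgtggtcgggccggg
WFIKKN1, 3′ splice site of the same intron: taagtgtcccccatccccAGgactgtgcgg
RXRB, 5′ splice site of intron 5 of 9, chr6:33196037-33196433, minus strand: cggcagcagcGTGAGTgttggggtcaatcc
RXRB, 3′ splice site of the same intron: cttacccccgtcccctgcAGccaaatgacc
FBXL8 has its first in-frame stop at intron base 2, WFIKKN1 at base 925 and RXRB at base 154. The inclusion of these introns in the control and with SY-351 was 0.843 and 0.155 for COPE, 0.825 and 0.181 for PLAUR and 0.661 and 0.048 for FBXL8. It was 0.239 and 0.75 for RXRB and 0.205 and 0.694 for ARAP3. For PLAUR these are values of the target variation, and the source variation of the same intron gave 0.019 and 0.021 and was not called. The source variations of RXRB (0.227 and 0.713) and ARAP3 (0.285 and 0.731) were called too. The junction that removes the intron took up the whole fall in COPE (0.688), MRPL55 (0.679) and PLAUR (0.644), but gained only 0.048 in FBXL8. It lost 0.904 in WFIKKN1, 0.704 in RPS6KC1, 0.508 in RXRB and 0.383 in ARAP3, whereas in CWC25 it gained 0.069 beside the rise of the intron.

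Inclusion was given by the authors as an expected share from 0 to 1 for each group as a whole, with no value per replicate, so a change carries no replicate error of its own. An intron was called where the authors' deposited table gave a probability of at least 0.95 that inclusion differed by 0.20 or more, and an intron listed in a pair of variations was taken once, from the variation with the higher probability. The table holds changing variations: in 98.97% of all 6716 the largest expected difference was 0.20 or more. Shares of called introns therefore describe this table and not the introns of HL60 cells at large. A library-level point precedes the results: DMSO replicates 1 and 2 stood apart. Across genes, which do not count as independent replicates, log2 CPM values correlated with a Pearson's r of 0.983 between these and of 0.987 between DMSO replicates 3 and 4, but 0.762 to 0.794 between the pairs, and 0.987 to 0.994 among the SY-351 libraries. The control inclusion values are not split by library and which libraries entered them is not given in the sources used here, so their part in the intron results was not tested. Totals of assigned counts were 103.7 to 124.2 M with DMSO and 43.3 to 77.9 M with SY-351. The 3 promyelocytic markers measured (MPO, CTSG, CD33) summed to 41450.4 to 48135 CPM in DMSO replicates 1 and 2, 12389.8 to 16130.4 CPM in DMSO replicates 3 and 4. In the treated libraries their sum was 28946 to 33385 CPM. The 6 T or B lymphoid markers summed to at most 14 CPM with DMSO and 21.5 CPM with SY-351.

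Most called introns were kept less often after CDK7 inhibition. Of 1010 introns, 254 fell and 100 rose, so that 71.8% of the 354 called introns fell. This was 25.1% of introns lower and 9.9% higher. Among the 29928 junction entries of all variations 10.4% were lower and 9.19% higher, 19.6% in all. Any entry was called in 59.6% of variations with an intron and in 54.8% of those without one. Junction entries and introns have different denominators, since a variation has several junctions and at most 1 intron. The falls began from high levels, with a median inclusion of 0.746 (quartiles 0.508 and 0.901) in the control and 0.184 (0.048 and 0.385) with SY-351. The rises went from a median of 0.173 (0.094 and 0.324) to 0.634 (0.502 and 0.785). In all, 192 introns passed from 0.5 or more in the control to under 0.5 with SY-351, and 92 passed the other way. No gene had more than 1 called intron, so the 354 introns lay in 354 genes.

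**Figure D1:**
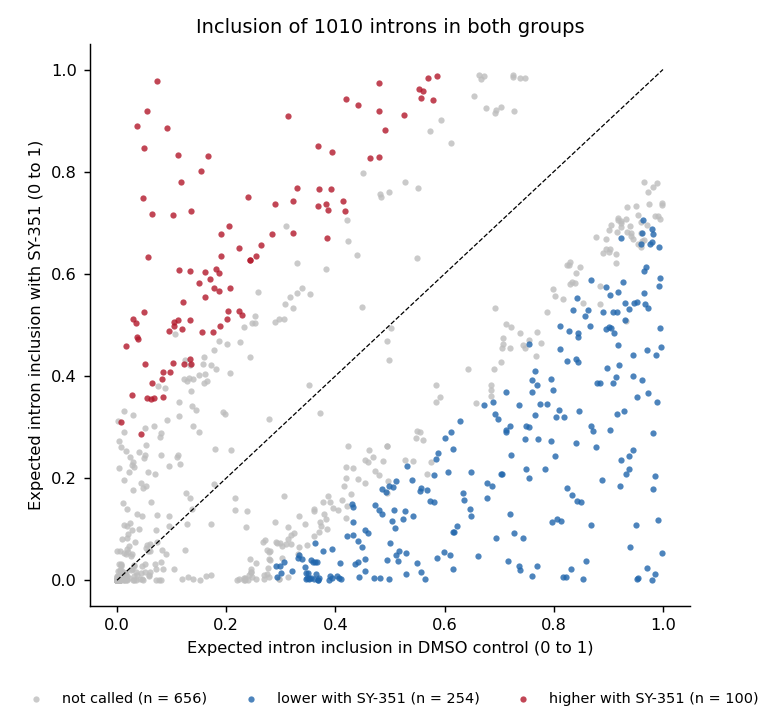
Expected inclusion of each of 1010 introns with SY-351 (vertical axis, 0 to 1) against the DMSO control (horizontal axis, 0 to 1), 1 point per intron, with the dashed line marking equal inclusion. The 254 introns called lower lie below the line towards high control levels and the 100 called higher lie above it, while many of the 656 not called sit at the origin.

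The 656 introns that were not called were of several kinds. In 300 of all introns inclusion was under 0.05 in both groups, so that the variation was listed for its junctions and not for its intron. The authors' deposited table gave 301 introns a probability of at least 0.95 that inclusion changed by 0.05 or less. A further 251 of those not called had an expected difference of 0.20 or more without reaching the probability. Because so many sat near 0, the median difference over all 1010 introns was -0.003 (quartiles -0.3 and 0.01).

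The direction followed the starting level, as a bounded scale forces at its ends. An intron kept in under 0.2 of transcripts cannot fall by 0.20, and one kept in over 0.8 cannot rise by it. Between these limits the falls still outnumbered the rises. The smallest called changes were 0.252 for falls and 0.243 for rises, so the bound reaches somewhat inside these limits. At a control inclusion of 0.2 to 0.5, 60 of 218 introns fell and 35 rose, and at 0.5 to 0.8, 88 of 149 fell and 7 rose. At 0.8 to 0.95, 71 of 108 fell, and at 0.95 or above 35 of 54. At the low end 48 of 131 introns rose between 0.05 and 0.2 and 10 of 350 below 0.05. Sorting by the mean of both groups, which favours neither direction, gave 109 falls and 67 rises of 289 introns between 0.2 and 0.5. It gave 109 falls and 30 rises of 201 introns between 0.5 and 0.8.

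**Figure D2:**
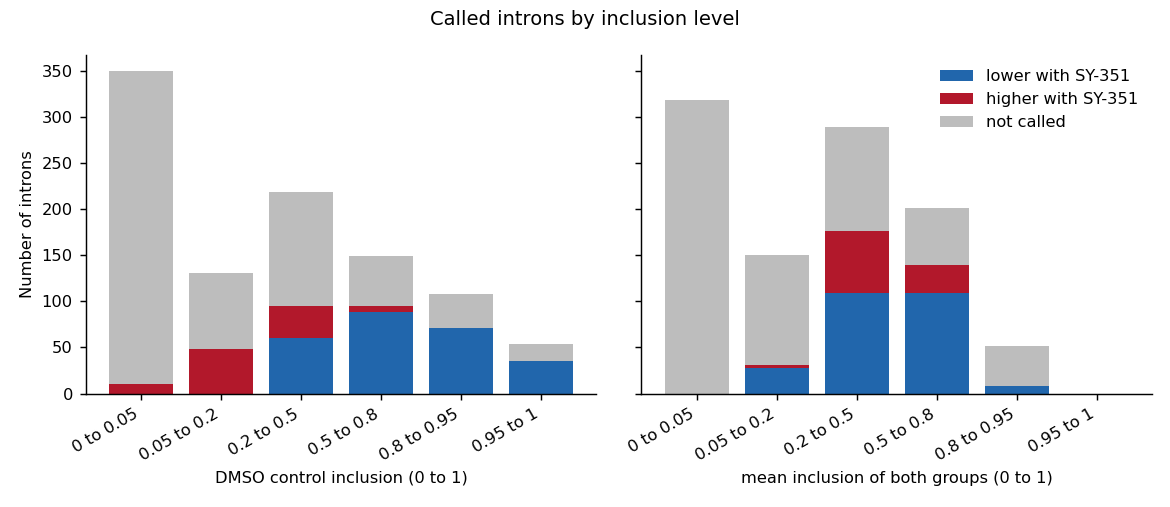
Number of introns (vertical axis) by inclusion level, with the DMSO control level on the left and the mean of both groups on the right (horizontal axes, 0 to 1), stacked by call. Between a mean of 0.5 and 0.8 the bar holds 109 introns lower and 30 higher of 201.

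The largest falls took introns, in the variation with the higher probability, from near complete inclusion to near 0. The variations of all 10 largest falls held a junction absent from the annotation the authors used. No annotated intron of the same length was found in GENCODE v29 for YBX3, ENOSF1, COP1, MTREX, TRIM59, PPFIA4, NASP and MAP2K2. For YBX3 and ENOSF1 no listed junction removes exactly the interval either. YBX3 encodes a cold-shock domain protein that binds RNA, and a 74 nt interval of it went from 0.98 to 0.001. ENOSF1, an enolase superfamily enzyme gene, went from 0.986 to 0.013 over 354 nt. The 1437 nt intron of TRIM59, a ubiquitin ligase gene, went from 0.998 to 0.054, and the variation at its other end gave 0.995 and 0.032. GNRH1, the gonadotropin-releasing hormone gene, went from 0.97 to 0.024, in a gene that measured at most 1.72 CPM in any library. PPFIA4, a liprin gene, went from 0.939 to 0.065 in its target variation and from 0.608 to 0.115 in its source variation. NASP, a histone H1 and H3 chaperone of replicating cells, went from 0.99 to 0.118 over 1016 nt, and the junction that removes this intron gained 0.723. MAP2K2, the kinase MEK2 of the ERK pathway, went from 0.951 to 0.109. RFC5, a subunit of the clamp loader of DNA replication, went from 0.853 to 0.002 in the target variation and from 0.396 to 0.133 in the source variation, and the latter was not called.

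For COP1 and MTREX the 2 ends of the intron gave different pictures. COP1, a ubiquitin ligase gene, went from 0.952 to 0.002 in the target variation of its 536 nt intron, but the source variation gave 0.017 and 0.023. MTREX, the helicase that feeds RNA to the nuclear exosome, went from 0.954 to 0.004 in the target variation of its 1168 nt intron, and the source variation gave 0.019 and 0.041. In both the value is relative to the other junctions of that exon, and the fall at the downstream exon was not seen at the upstream exon. A fall at 1 end only was also listed for PLAUR, as given above, for PMS1, a mismatch repair gene (-0.388 in the target and 0.007 in the source variation), for CBFA2T3, a transcriptional corepressor gene (-0.404 in the source and 0.039 in the target variation), and for LUC7L2, a U1-associated splicing factor gene (-0.696 in the source and -0.021 in the target variation).

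The largest rises were of like size. For ZNF331, ZC3H10, CHAMP1, ERAP2 and ZNF675 no listed junction removes exactly the interval, and no annotated intron of the same length was found. WFIKKN1 went from 0.074 to 0.978 over its 1157 nt intron, the only intron of its annotated transcript, and the source variation gave 0.02 and 0.954. An interval of 8 nt in the zinc finger gene ZNF331 went from 0.054 to 0.919, which is too short for a whole intron. ZC3H10, which encodes a CCCH zinc finger protein, went from 0.037 to 0.889 over 180 nt, and CHAMP1, a chromosome alignment gene, from 0.05 to 0.847 over 1341 nt. RPS6KC1, shown above, went from 0.112 to 0.833 in its source variation and from 0.086 to 0.655 in its target variation. ARID4A, a gene of a histone deacetylase complex subunit, went from 0.048 to 0.749, and the junction removing its 106 nt intron lost 0.701. ERAP2, an aminopeptidase that trims antigens, went from 0.167 to 0.83, HEATR6 from 0.118 to 0.78 and the zinc finger gene ZNF675 from 0.064 to 0.717.

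**Figure D3:**
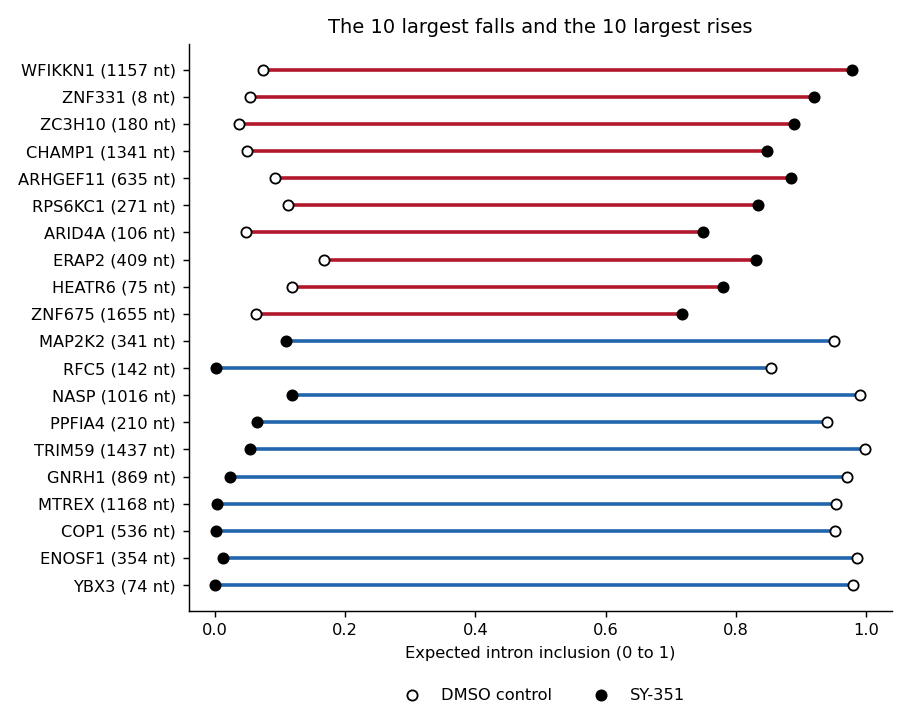
Expected intron inclusion (horizontal axis, 0 to 1) in the DMSO control (open circles) and with SY-351 (filled circles) for the 10 largest falls (blue lines) and 10 largest rises (red lines), 1 intron per gene, with interval length in nt. WFIKKN1 spans 0.074 to 0.978 and YBX3 0.98 to 0.001.

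Loss of an intron was in part gain of its own spliced junction. Of the 254 introns that fell, 140 had a junction removing exactly the intron, and in 93 of these that junction gained 0.05 or more while in 3 it lost as much. In 80 of the 140 that junction gained more than any other junction of the variation. In the rest another junction of the variation gained at least as much, and the intron's own junction could gain as well. GNRH1 is an example, as its own junction changed by -0.011 while the intron fell by 0.946. This gene was near the floor, with 0.0141, 0.0147, 1.03 and 1.15 CPM in DMSO replicates 1 to 4 and 1.1 to 1.72 CPM with SY-351. In other named falls the junction that removes exactly the intron did not take up the change either. It changed by -0.087 in POLR2B, -0.023 in ATP5PO, 0.043 in RFC5, 0.021 in PMS1 and -0.012 in RAB11FIP2. Of the 100 introns that rose, 52 had such a junction, which lost 0.05 or more in 26 and gained as much in 5. Among named rises this junction changed by -0.015 in TET2, -0.005 in CDC25B and 0.002 in HEATR6. The median share of the change carried by the direct junction was 0.817 for falls and 0.372 for rises. Shares within a variation sum to about 1, so with 2 entries the single junction takes up the whole change by arithmetic. MAP2K2, MRPL55, ARID4A and WFIKKN1 are such cases. Variations with 2 entries held 90 of the 254 falls and 22 of the 100 rises. The counts and shares above were not separated from the number of entries.

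The ends of an intron were compared next. Among the 211 introns with a source and a target variation, 49 were called lower and 20 higher in both, and 0 were called in opposite directions. In 60 only 1 of the variations was called, and in 9 of these the other gave a difference of the opposite sign. The difference from the source side and that from the target side were a median of 0.049 apart (upper quartile 0.166), and 43 introns had them over 0.20 apart. By variation, 148 of 626 source and 155 of 595 target variations fell, and 59 and 61 rose.

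The share of calls was also counted by the number of entries in the variation. In variations with 2 entries, that is 1 junction and the intron, 90 of 178 introns fell and 22 rose, with a median difference of -0.302. With 3 entries 57 of 220 fell and 20 rose, with 4 entries 47 of 180 fell and 20 rose, and with 5 or 6 entries 37 of 247 fell and 18 rose. With 7 or more, 23 of 185 fell and 20 rose, and the median control inclusion was 0.019 against 0.655 in variations with 2 entries. Among introns with a control inclusion of 0.2 or more, 58.1% fell and 5.16% rose in variations with 2 entries, and 38.3% fell and 16.7% rose in those with 7 or more. Between these, 42.9%, 50% and 42.5% fell with 3, 4 and 5 or 6 entries, so the shares were not in order. De novo junctions are junctions absent from the annotation the authors used. Without one, 93 of 272 introns fell and 30 rose, and with at least 1, 161 of 738 fell and 70 rose. With a control inclusion of 0.2 or more those that fell were 52.8% and 45.6%.

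Length separated the calls little. Of introns of 30 to 99 nt that a junction removes exactly, 28 of 99 fell and 6 rose. Of those of 100 to 199 nt, 38 of 147 fell and 15 rose, and of those of 200 to 499 nt, 44 of 186 fell and 15 rose. Of those of 500 to 999 nt, 19 of 76 fell and 13 rose, and of those of 1000 nt or more, 11 of 45 fell and 3 rose. Falling introns of this kind had a median length of 202 nt (quartiles 111 and 426), rising ones of 247 nt (146 and 550) and those not called of 241 nt (116 and 431), so that the quartile ranges overlap. The longest called introns were those of PAG1, a membrane adaptor gene, with 4614 nt (0.857 to 0.518), RAB11FIP2, a vesicle recycling gene, with 3063 nt (0.902 to 0.496), and TET2, a DNA demethylase gene, with 2313 nt (0.113 to 0.607). The variation at the other end was not called for PAG1 (0.761 and 0.477) or RAB11FIP2 (0.957 and 0.735). With the 1 variation kept per intron, the 3 called introns of highest control inclusion were those of TRIM59, BLOC1S3, a lysosome biogenesis gene (0.997 to 0.456, and 0.989 to 0.692 in its source variation), and CBFA2T3 (0.995 to 0.591 in its source variation).

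Among the 401 matched introns, the place in the transcript was also described. Of 131 last introns 40 fell and 12 rose, of 89 first introns 24 fell and 14 rose, and of 207 that were neither, 41 fell and 18 rose. An intron that is the only one of its transcript counts as first and last. Inside coding sequence 37 of 212 fell and 25 rose, and in those not inside it 57 of 189 fell and 14 rose. Where retention brings an in-frame stop, 26 of 176 introns fell and 24 rose, and where it does not, 10 of 33 fell and 1 rose. These groups began at different levels. Median control inclusion was 0.077 with a stop and 0.403 without, and 0.113 inside coding sequence and 0.33 outside it. It was 0.331 for last introns, 0.129 for first introns and 0.095 for the others. These counts were not separated from starting level. The median GC content was 51.2% for 93 falling introns (quartiles 37.9 and 58.1), 55.4% for 39 rising ones (43.1 and 61.9) and 50.1% for 264 not called (37.1 and 61). At 60% GC or above 17 of 100 introns fell and 12 rose, against 27 and 9 of 118 below 40%. An exon of another gene overlapped 37 matched introns, of which 7 fell and 3 rose.

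The functions of the genes were compared by lists, and each count stands beside the 25.1% lower and 9.9% higher of all introns. The lists began at different levels. Median control inclusion was 0.24 over all introns and 0.696 for cytosolic ribosomal proteins. It was 0.76 for the mitochondrial list, 0.802 for RNA polymerase II and Mediator, 0.23 for RNA export and decay and 0.034 for SR proteins and hnRNPs. Of all 311 introns at 0.5 or more in the control, 194 fell. The list counts were not separated from starting level. Cytosolic ribosomal proteins build both subunits of the ribosome. In these genes 9 of 12 introns fell, 1 rose and the median difference was -0.455. Among them RPL11 went from 0.946 to 0.256, RPSA from 0.796 to 0.115 and RPS29 from 0.973 to 0.367. RPS18 (0.719 to 0.13), RPL29 (0.914 to 0.398), RPL32 (0.646 to 0.14), RPL23A (0.947 to 0.543), RPS10 (0.606 to 0.211) and RPL22 (0.673 to 0.343) fell as well. RPS19, of the small subunit, rose from 0.48 to 0.973. RPL10 and RPS9 were not called (differences of -0.239 and -0.223). Only 3 of the 9 that fell (RPS29, RPS18 and RPL23A) had a junction that removes exactly the interval. Ribosomal protein genes have many processed pseudogenes, and how reads shared with them were placed is not given in the sources used here.

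Genes of the mitochondrial ribosome and respiratory chain had 5 of 10 introns lower and 0 higher, with a median difference of -0.29. ATP5PO, a stalk subunit of ATP synthase, went from 0.823 to 0.006 and MRPL55 from 0.717 to 0.038. MRPL20 (0.799 to 0.373), MRPL32 (0.916 to 0.525) and MRPL43 (0.969 to 0.614) fell as well.

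RNA-binding proteins that choose splice sites often control their own mRNA by retained introns or poison exons. In the list of SR proteins and hnRNPs 7 of 26 introns fell and 1 rose, and the median difference was -0.002. HNRNPD, an AU-rich element binding protein, went from 0.859 to 0.037 over 692 nt and its relative HNRNPDL from 0.834 to 0.166 over 679 nt. A second intron of each, of 247 nt and 242 nt, lay at 0 in both groups. No listed junction removes exactly the 692 nt interval, and no annotated intron of that length was found. Among SR proteins SRSF3 went from 0.53 to 0.012 and SRSF7 from 0.748 to 0.277. ARGLU1, an arginine- and glutamate-rich splicing regulator gene with a known retained intron, went from 0.616 to 0.095, and an interval of 25 nt in TIAL1 from 0.863 to 0.53. LUC7L2 belongs here too. RBM25, a splicing regulator gene, had 2 introns, of which the 550 nt one rose from 0.082 to 0.394 and the 351 nt one measured 0.727 and 0.918 without being called.

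The spliceosome itself gave few calls. In the core spliceosome list 2 of 10 introns rose and 0 fell: CWC25 went from 0.191 to 0.678 and DDX39B, a helicase of splicing and mRNA export, from 0.182 to 0.61. SF3B1, the branch-point recognition subunit, measured 0.314 and 0.104 and was not called. The 2 introns of minor spliceosome genes and the 4 of splicing kinase genes gave 0 calls. CLK1 and CLK4 are kinases of SR proteins known for detained introns, but the intron entries of their variations here lay at 0 to 0.001 in both groups. Those of CCNL2 (a cyclin of splicing factors), OGT (the O-GlcNAc transferase) and TRA2A (a splicing activator) lay at 0 to 0.004. Entries were taken by gene, so whether they are the known introns of these genes was not tested. The OGT entry had no listed interval. For the CLK1 and CCNL2 intervals no annotated intron of the same length was found. The list of genes known for regulated retained introns gave 1 fall, SRSF7, and 1 rise among 11 intron entries. The rise was METTL3, the catalytic subunit of the m6A methyltransferase, from 0.387 to 0.724 over the 168 nt intron 9 of 10 in its source variation. Its target variation gave 0.429 and 0.507 and was not called. An exon of a gene on the other strand overlaps this intron, and whether the splicing table was made with strand is not given in the sources used here.

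**Figure D4:**
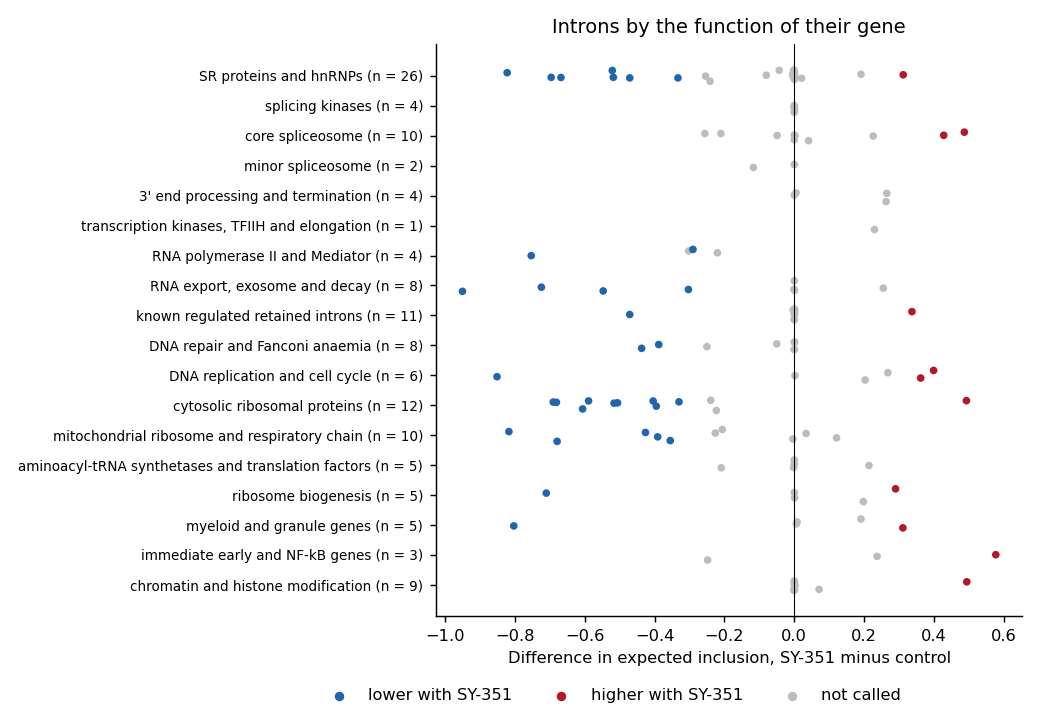
Difference in expected inclusion, SY-351 minus DMSO control (horizontal axis), for every intron of the genes in each functional list (rows, with the number of introns), coloured by call. Cytosolic ribosomal protein genes show 9 introns lower and 1 higher of 12, and splicing kinase genes sit at 0.

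RNA export, exosome and decay genes had 4 of 8 introns lower and 0 higher. Besides MTREX they were the exosome subunits EXOSC8 (0.932 to 0.208) and EXOSC7 (0.946 to 0.399) and the exon junction protein MAGOHB (0.321 to 0.018). EXOSC7 fell from both ends of its 213 nt intron, with 0.935 and 0.465 in the source variation. Among RNA polymerase II and Mediator genes 2 of 4 introns fell. POLR2B, the second largest subunit, went from 0.761 to 0.008 over a 160 nt intron, and MED28 from 0.843 to 0.553. The junction that removes the POLR2B intron changed by -0.087 and so did not take up the fall. In transcription kinase, TFIIH and elongation genes the only intron was that of GTF2H4, a TFIIH subunit, which measured 0.16 and 0.387 and was not called. The 4 introns of 3′ end processing genes gave 0 calls, with WDR33, of the polyadenylation signal reader, at 0.131 and 0.396.

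DNA repair genes had 2 of 8 introns lower and 0 higher, ATR, the replication stress kinase (0.444 to 0.007), whose intron overlaps an exon on the other strand, and PMS1. In DNA replication and cell cycle genes RFC5 fell, and RFC4, another clamp loader subunit (0.111 to 0.51), and CDC25B, a phosphatase that activates CDKs (0.578 to 0.94), rose, that is 1 and 2 of 6. For RFC4 the other variation of the same intron gave 0.162 and 0.369 and was not called. In ribosome biogenesis NCL, nucleolin, went from 0.737 to 0.027 and POLR1D, a polymerase I and III subunit, from 0.229 to 0.519, with 5 introns in the list. Myeloid genes gave 1 fall and 1 rise of 5, both in the phagocyte NADPH oxidase: CYBA went from 0.982 to 0.179 and NCF4 from 0.175 to 0.486. SOCS1, an inhibitor of cytokine signalling, rose from 0.056 to 0.633 over the only intron of its annotated transcript, 1 of 3 immediate early and NF-kB introns. TET2 was the only call of 9 introns in chromatin genes. The 5 introns of translation factor and tRNA synthetase genes gave 0 calls, and proteasome and ubiquitin conjugation genes had 0 introns among the members.

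The next comparison set the introns beside the level of their genes. Counts were taken over each transcript from start to end, introns included, so reads of a retained intron count for its gene. In bulk RNA, fewer cells of a type and less RNA per cell cannot be told apart. Of 951 host genes 816 were found in the count table and 800 were tested. In edgeR's quasi-likelihood test on all 8 libraries SY-351 gave 18 higher and 139 lower host genes at a Benjamini-Hochberg adjusted p below 0.05, which is 2.25% and 17.4%, beside 2.91% and 13.6% of all 15472 genes. Leaving out any 1 SY-351 library left 2 higher and 22 to 25 lower, and leaving out 1 DMSO library gave 4 and 73 (replicate 1), 5 and 86 (replicate 2), 24 and 232 (replicate 3) or 35 and 170 (replicate 4). Without DMSO replicates 1 and 2, chosen with earlier results of these data known, 214 were higher and 312 lower, which is 26.8% and 39%, beside 21.9% and 26.4% of all genes.

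Genes whose intron fell and genes whose intron rose were then taken apart. Of 203 tested genes with a falling intron 3 were higher and 40 lower, and of 84 with a rising intron 3 were higher and 15 lower. The median log2 fold change was -0.32 and -0.44, against -0.31 for the 513 genes with no called intron and 0 for all genes. Without DMSO replicates 1 and 2 the genes with a falling intron had a median of 0.07 with 73 higher and 79 lower. Those with a rising intron had a median of -0.33 with 16 higher and 38 lower. Across the 287 called introns in tested genes, Pearson's r between the difference in inclusion and the log2 fold change of the gene was -0.07 (Spearman's coefficient -0.083), and -0.112 (-0.124) without those libraries. These introns share the same libraries, so r is given as a description.

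The DMSO replicates that stood apart did so strongly in host genes. DMSO replicates 1 and 2 lay at least 4-fold above replicates 3 and 4 in 17.1% of host genes and at least 4-fold below them in 26.9%, on log2 of CPM with 0.5 added, beside 11.7% and 17.1% of all genes. For genes with a falling intron these shares were 19.7% and 25.1%, and for those with a rising intron 20.2% and 20.2%. Its part in the intron results was not tested.

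Levels are given as TMM-scaled CPM in DMSO replicates 1 to 4 and then in SY-351 replicates 1 to 4. MTREX measured 0.649, 1.26, 48.1 and 65 with DMSO and 27.4, 31.1, 28.5 and 28.2 with SY-351. The SY-351 libraries lay between the DMSO pairs, and the log2 change was 0 ± 1.2 (SE; adjusted p = 1 by edgeR) with all libraries and -0.95 ± 0.16 (SE, adjusted p = 5.28e-09) without DMSO 1 and 2. NASP measured 11.4, 5.7, 189.7 and 254 with DMSO and 89.4, 93.4, 88.7 and 96.2 with SY-351. It showed the same arrangement, with -0.32 ± 1.03 (SE, adjusted p = 0.847, edgeR) and -1.25 ± 0.15 (SE, adjusted p = 5.86e-15) without that pair. YBX3 measured 1552, 1743, 212 and 282 with DMSO and 321, 289.5, 298 and 296 with SY-351, so that here the first pair of DMSO libraries was the high one. RFC5 measured 47.5, 31.4, 39.7 and 51.2 with DMSO and 28.2, 28, 29.3 and 28.8 with SY-351. Each SY-351 value was under the lowest DMSO value, but the log2 change of -0.57 ± 0.24 (SE) did not pass (edgeR adjusted p = 0.147). Without DMSO 1 and 2 it was -0.65 ± 0.16 (SE, edgeR adjusted p = 0.000114).

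In the 3 ribosomal protein genes with the largest falls of an intron, the gene itself read higher with SY-351 than in any DMSO library. RPL11 measured 14.1, 7.49, 539.6 and 888 with DMSO and 2224, 1715, 2222 and 2225 with SY-351. The log2 change was 2.53 ± 1.32 (SE, edgeR adjusted p = 0.229) with all libraries and 1.57 ± 0.18 (SE, adjusted p = 3.3e-17) without DMSO 1 and 2. RPS29 measured 4.74, 1.56, 315 and 436 with DMSO and 978, 975, 1006 and 1035 with SY-351. RPSA measured 19.1, 14.5, 653 and 938 with DMSO and 2328, 2084, 2225 and 2205 with SY-351. All of these were far lower in DMSO replicates 1 and 2 than in 3 and 4, and RPS29 and RPSA did not pass with all libraries either (edgeR adjusted p = 0.289 and 0.215).

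Other host genes passed the test on all libraries, and each kept its direction but missed 0.05 without any 1 of the SY-351 libraries (edgeR adjusted p from 0.0642 in CHAMP1 to 0.128 in COP1). MRPL55 measured 126, 134, 18.5 and 24.3 with DMSO and 8.29, 8.93, 8.07 and 8.74 with SY-351, a fall by 3.16 on the log2 scale (SE 0.69, edgeR adjusted p = 0.0203). HNRNPDL measured 548, 636, 176 and 229 with DMSO and 95.2, 100.4, 91.9 and 91.6 with SY-351 and fell by 2.07 (SE 0.47, edgeR adjusted p = 0.0223). CHAMP1, whose intron rose, measured 57, 72.6, 82.5 and 111 with DMSO and 31, 32, 32.5 and 28.6 with SY-351. Its log2 change was -1.38 ± 0.27 (SE; adjusted p = 0.0138 by edgeR), and -1.62 ± 0.15 (SE) without DMSO 1 and 2. It is a case in which all DMSO libraries agreed within 2-fold. HEATR6, whose intron rose too, measured 22.2, 30.1, 20.5 and 26.3 with DMSO and 11.1, 12.2, 13.3 and 9.82 with SY-351 (log2 fold -1.09 ± 0.26, SE, edgeR adjusted p = 0.0266). COP1 measured 92.6, 109.9, 42.3 and 51.5 with DMSO and 27.6, 30.7, 29.2 and 30.9 with SY-351 (-1.32 ± 0.35, SE, edgeR adjusted p = 0.0362). BLOC1S3 measured 59.8, 68.5, 17.6 and 24.4 with DMSO and 11.4, 10.5, 9.74 and 11 with SY-351 (-2 ± 0.46, SE, edgeR adjusted p = 0.0243). In COP1 and BLOC1S3 the higher DMSO pair was replicates 1 and 2, and neither passed without replicate 1 (edgeR adjusted p = 0.0877 and 0.0594) or without replicate 2 (0.077 and 0.05). HNRNPDL missed it without DMSO replicate 1 (0.0539), and HEATR6 without DMSO replicate 2 (0.0528). With total count scaling CHAMP1 and HEATR6 did not pass (edgeR adjusted p = 0.0689 and 0.0741).

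In other genes with a called intron the gene did not pass on all libraries. RPS6KC1 measured 12.5, 15.8, 13.3 and 16 with DMSO and 14.2, 14.9, 15.1 and 13.9 with SY-351, where the DMSO libraries did not split and the groups overlapped (log2 fold 0.01 ± 0.25, SE, edgeR adjusted p = 0.978). METTL3 measured 1.89, 0.558, 52.6 and 69.3 with DMSO and 72.7, 76, 72.7 and 65.6 with SY-351. SRSF7 measured 4.02, 2.32, 109.5 and 170.1 with DMSO and 88.7, 91.4, 88.3 and 78.2 with SY-351. Both lay higher in DMSO replicates 3 and 4 than in replicates 1 and 2. For METTL3 the range of replicates 3 and 4 overlapped that of SY-351, and for SRSF7 it lay above it. TET2 measured 13.6, 16.1, 32.2 and 41 with DMSO and 40.1, 48.5, 48.3 and 36.5 with SY-351, and the groups overlapped. CYBA measured 1090.4, 1223, 105 and 141 with DMSO and 286, 352, 365 and 265 with SY-351. For CYBA the SY-351 libraries lay between the DMSO pairs. WFIKKN1 was low throughout, with 3.65, 3.48, 0.326 and 0.531 CPM with DMSO and 3.33, 3.5, 2.77 and 3.4 CPM with SY-351. SOCS1 measured 24.5, 24.9, 1.57 and 2.28 with DMSO and 1.86, 1.1, 1.43 and 1.67 with SY-351. In METTL3, SRSF7, CYBA, WFIKKN1 and SOCS1 the DMSO pairs lay further apart than DMSO replicates 3 and 4 lay from SY-351, and none passed on all libraries (edgeR adjusted p = 0.517, 0.884, 0.412, 0.54 and 0.0546). Without DMSO replicates 1 and 2, CYBA (log2 change 1.39) and WFIKKN1 (2.95) were higher and SRSF7 (-0.67) lower (edgeR adjusted p = 3.45e-15, 5.1e-18 and 6.87e-05), and METTL3 and SOCS1 did not pass (0.194 and 0.425).

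**Figure D5:**
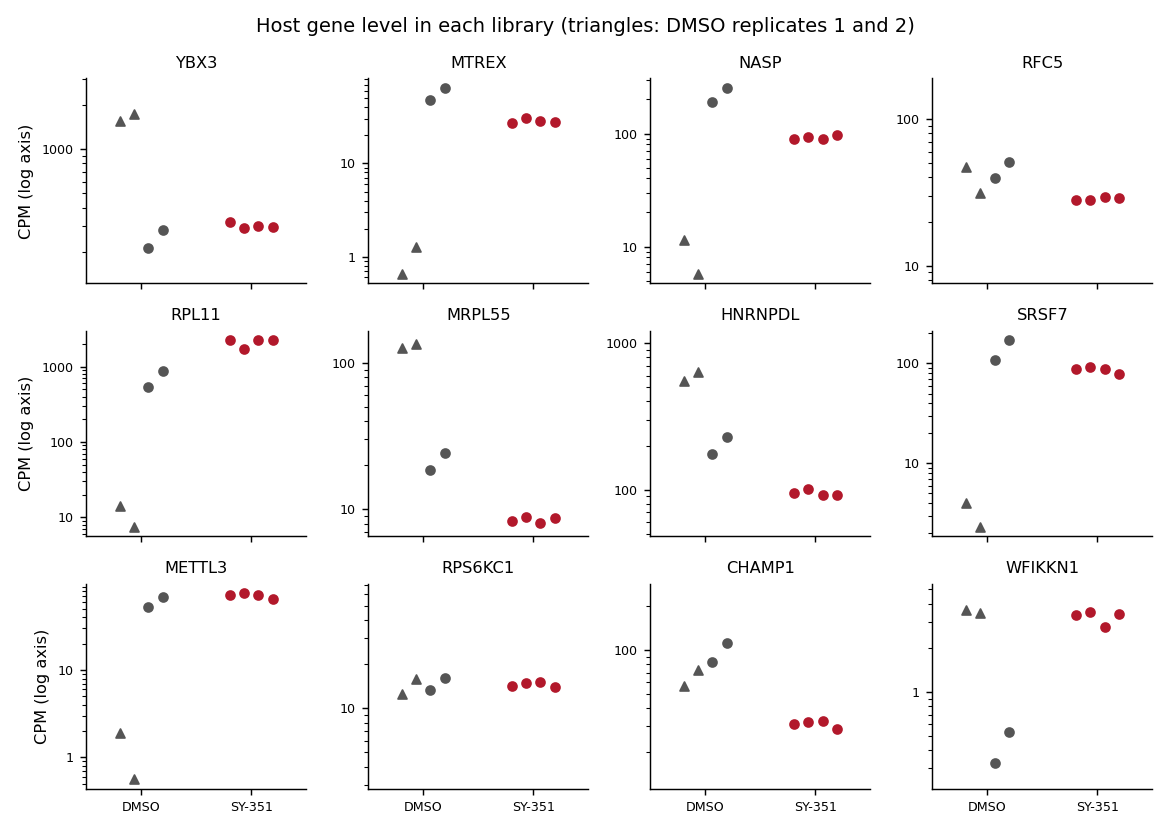
TMM-scaled CPM (vertical axes, log scale) of 12 host genes in each library, with DMSO in grey (triangles for replicates 1 and 2) and SY-351 in red. The DMSO pairs split in MTREX, NASP, RPL11, SRSF7 and METTL3, whereas RPS6KC1 lies between 12.5 and 16 CPM in every library.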

How the data were processed

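Polyadenylated RNA was made into libraries with an Illumina TruSeq kit, per the labels' protocols. The authors deposited whole-number read counts per RefSeq transcript interval (featureCounts 1.6.2, per the file headers; GRCh38 and DESeq2 are named in the submitters' processing notes), in 8 columns, 1 per replicate. The sources used here do not say how technical repeats were joined. The authors also deposited a table of splicing variations with MAJIQ and Voila column names, whose values (expected inclusion, its difference and a posterior probability) are 1 per group, per the file headers. Its folder name says that outliers were left out. Which samples those were, the version and the build are not given in the sources used here, and its coordinates do not follow GRCh38, so none is printed.

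The authors' difference was turned to SY-351 minus control. Introns were called at a probability of 0.95, and counted once. Introns were matched to GENCODE v29 by gene, length and at least 1 further exon edge. The test on counts was that of edgeR 4.0.16, run under R 4.3.3 (TMM, filterByExpr, robust quasi-likelihood test, two-sided, Benjamini-Hochberg). The SE was obtained from the log2 fold and the F statistic, as their ratio after taking the root of F. Named introns were the 10 largest falls and 10 largest rises (1 per gene), up to 3 of each list with a call, a set of genes known for retained introns, and the 3 called introns of highest control inclusion and of greatest length. Of the largest rises, 1 is plotted but not described in the text. Further members of the lists, and COPE, PLAUR, FBXL8, RXRB and ARAP3, shown for their sequence, were named beyond that rule after their values were seen. The members, lists and rules were chosen with earlier results of these data known. Both steps were also run on simulated data, as a check of the code. No outcome of these runs is given here, and no result above rests on them. They do not show how the test on counts behaves when the DMSO libraries split as they did here. Alternatives were other probabilities, subsets of variations, DESeq2 1.42.0, other scalings, no filter, a replicate block and leaving out libraries.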

Additional observations from a re-analysis of the deposited data

Results flagged for a closer look

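RPL11, whose intron fell, measured 1715 CPM in SY-351 replicate 2 while the other SY-351 libraries measured 2222 to 2225 CPM. That library lay apart from the others by more than Dixon's 95% value for 4 samples. It was the 1 case among 40 groups checked, from 20 host genes, and chance alone would give about 1 in 20 groups.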

How the results depend on the processing

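The counts of 254 introns lower and 100 higher moved by under 1.5 times at a probability of 0.90 (285 and 121) or 0.99 (199 and 81), with each variation counted (303 and 120), and with introns called in every variation that holds them (204 and 90). Subsets gave fewer by construction: 97 and 32 in variations without a de novo junction, 148 and 59 in source variations and 155 and 61 in target variations. With alternatives chosen after seeing the data, 140 and 52 introns had a junction removing exactly the intron, and 87 and 36 matched introns overlapped no exon of another gene. A difference of at least 0.10 whatever the probability gave 436 and 210, and one of at least 0.20 gave 420 and 182. Falls made up 67.5 to 75.2% of calls under these settings. The median difference was -0.003. It was -0.005 over all variations and -0.003 with the mean of the source and target variation. In the subsets it was -0.009 for source variations and -0.004 for target variations. All 4 alternative values lay within a 95% binomial interval of -0.013 to -0.001. That interval treats introns as independent, although all share the same pooled groups, so it is only a yardstick for these settings. Of 129 introns with both ends listed and a call, 9 had a difference of the opposite sign at the other end, not called there. Among those named they were COP1 (0.006), MTREX (0.022), PLAUR (0.002), CBFA2T3 (0.039) and PMS1 (0.007). The call was lost at the other end, with the same sign, for RFC5, LUC7L2, ZNF830, RAB11FIP2, PAG1, METTL3, RFC4 and ZBTB11.

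Host gene counts, 18 higher and 139 lower, depended on the libraries: 48 and 255 with DESeq2, 11 higher with DESeq2's size factors in edgeR, 6 higher with total count scaling, and 214 and 312 without DMSO replicates 1 and 2. Leaving out 1 library gave 2 to 35 higher and 22 to 232 lower. The lowest counts came without any 1 of the SY-351 libraries (2 higher each, 22, 25, 23 and 25 lower for replicates 1 to 4), followed by DMSO 1 (4 and 73) and DMSO 2 (5 and 86). Without DMSO 3 there were 24 and 232, and without DMSO 4 35 and 170. The cause was not tested.

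With the replicate number as a block in edgeR, 0 host genes were higher and 0 lower, and 201 had an unadjusted p below 0.05. DESeq2 was not run with the block. Same-numbered libraries did not deviate together (correlations of -0.015, -0.041, 0.006 and -0.176), and 0 of 4 correlated best with its own number. The DMSO deviations carry the split of the DMSO pairs (r of 0.762 to 0.794), and the SY-351 libraries vary little (0.987 to 0.994). This check therefore cannot decide whether the numbers pair the samples. No paired analysis was possible for the introns because their values are pooled by group. Splicing depth cannot be stated, since the table gives no read numbers.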

Other observations

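Zinc finger genes, a group chosen after their values were seen, held 63 of the introns (symbols beginning with ZNF, ZSCAN, ZKSCAN or ZBTB). Of these, 18 fell and 9 rose, with a median difference of -0.001. ZNF830 went from 0.75 to 0.218 in its target variation (0.936 and 0.679 in the source variation, not called) and ZNF776 from 0.953 to 0.545. ZNF671 rose from 0.034 to 0.503 and ZNF446 from 0.29 to 0.736. ZBTB11 rose from 0.036 to 0.476 in its source variation, and its target variation gave 0.025 and 0.293 and was not called. Their shares of 28.6% lower and 14.3% higher stand beside 25.1% and 9.9% of all introns.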
